A study of Mus musculus with 12 samples.

Results

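The miRNA pair miR-221 and miR-222 was measured through 4 mature arms, mmu-miR-221-3p, mmu-miR-221-5p, mmu-miR-222-3p and mmu-miR-222-5p (named without the mouse prefix from here on), chosen by name from the 1929 mouse miRNAs of a small RNA sequencing study of injured liver. All 4 passed the filter on low counts, which kept 607 miRNAs for testing. Small RNA came from the livers of 12 C57BL/6 mice, 1 library per mouse. All of them had repeated intraperitoneal injections of carbon tetrachloride (CCl4), a toxin that produces hepatic fibrosis. In the PZH group, 6 mice also received PZH, the traditional Chinese medicine Pien Tze Huang, daily by the intragastric route, and in the water group 6 mice were given double distilled water by that route. No uninjured liver was analysed here, so the comparison lies within CCl4 injury. The sources used here give neither the age and sex of the mice nor the dose of PZH.

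The hairpins of miR-221 and miR-222 lie side by side on the X chromosome and are known to be made from 1 primary transcript. Their 3p arms carry the same seed, the stretch that pairs with target messages, and are known to repress the cyclin-dependent kinase inhibitors Cdkn1b and Cdkn1c and the receptor Kit. In fibrotic liver of human and mouse, both miRNAs are known to be raised, with activated hepatic stellate cells as a source, and they are also abundant in endothelial and smooth muscle cells. The 5p arms are the passenger strands, most of which are discarded when the guide strand is loaded.

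The mature sequences, from RefSeq on build GRCm38.p6, show what the arms share. Seeds (bases 2 to 8 from the 5′ end) are in capitals.
miR-221-3p: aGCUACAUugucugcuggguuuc
miR-222-3p: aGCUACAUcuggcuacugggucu
miR-221-5p: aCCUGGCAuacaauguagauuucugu
Both 3p arms are 23 bases long and are identical over the first 8 bases, seed included. Compared position by position without gaps, 11 of 23 bases are equal and 12 differ, starting with U9C, G10U and U11G. In these names the base of miR-221-3p comes first, then its position from the 5′ end, then the base of miR-222-3p. No inserted base was allowed, so the 12 differences do not measure how unlike the arms are beyond the seed. Both arms also hold the stretch cugggu, at different positions. A single other mouse miRNA of the RefSeq table used, miR-1928, carries the seed of the 3p arms, and it was not analysed here. No other miRNA of that table shares the seed of miR-221-5p.

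The hairpins show where the arms sit, with the annotated mature arms in capitals.
Mir221 hairpin: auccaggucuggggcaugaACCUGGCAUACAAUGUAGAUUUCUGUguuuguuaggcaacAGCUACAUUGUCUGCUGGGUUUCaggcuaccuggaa
Mir222 hairpin: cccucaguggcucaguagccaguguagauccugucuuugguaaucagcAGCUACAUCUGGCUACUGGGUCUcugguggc
On GRCm38 the hairpin of miR-221 covers chrX:19146294-19146388 and that of miR-222 chrX:19146893-19146971, both on the minus strand and 504 bases apart, with miR-222 upstream. No other gene of GENCODE release M21 overlaps them. The nearest gene upstream is Gm14636, a processed transcript on the same strand that begins and ends between X positions 19156981 and 19167241, and it lies 10009 bases away.

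Total counts ranged from 6065480 to 10436478 in the PZH libraries and from 4961913 to 20211784 in the water libraries. The hepatocyte miRNA miR-122-5p held 9.18% to 12.4% of counts in the PZH libraries and 9.18% to 11.2% in the water libraries, as fits the labelled tissue. The lowest count of any of the 4 arms was 47, for miR-222-5p in PZH replicate 1. Levels are given as CPM (counts scaled to a common library size, with TMM factors), and changes as log2 fold changes of PZH over water from edgeR's quasi-likelihood test, with Benjamini-Hochberg adjustment over all 607 miRNAs and a call at an adjusted p under 0.05.

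One arm of the pair rose with PZH. The dominant arm, miR-221-3p, was 1.27-fold higher in the livers of PZH mice than in those of water mice. Its seed partner miR-222-3p had close to equal means in both groups, and neither 5p arm passed the test. Of the 4 arms, 1 was called, where 21.3% of all tested miRNAs were called and 9.88% were called higher, so the number of calls in the pair was near the background.

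The guide arm miR-221-3p held most of the pair's counts. Its level in PZH livers was 4462 CPM at the lowest, 4978 CPM at the median and 6413 CPM at the highest. In water livers it was 3886 CPM at the lowest, 4144 CPM at the median and 4726 CPM at the highest. The groups overlapped through PZH replicate 4 alone, since the other 5 PZH mice stood above every water mouse. Of all tested miRNAs, 5.11% had every PZH mouse above every water mouse. The means were 5318 ± 822 CPM with PZH and 4202 ± 300 CPM with water (SD, n = 6 each; log2 fold change 0.34, SE 0.09, 95% interval 0.14 to 0.54, edgeR adjusted p = 0.0172). Of all tested miRNAs, 35.6% had an absolute log2 fold change at least as large. With each of the 12 libraries left out in turn, the call held (log2 fold change 0.28 to 0.38, edgeR adjusted p 0.0102 to 0.0448).

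The PZH mice were not alike in miR-221-3p. Replicates 1 and 6 held 6413 and 6269 CPM, and the other 4 lay between 4462 and 5131 CPM. The coefficient of variation was 15.5% among PZH livers and 7.13% among water livers. As a share of all counts, miR-221-3p averaged 0.540% with PZH and 0.413% with water. Its rank among the miRNAs of a library was between 25 and 40.

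The second guide arm, miR-222-3p, showed no such difference. Its level in PZH livers was 295 CPM at the lowest, 334 CPM at the median and 363 CPM at the highest. In water livers it was 308 CPM at the lowest, 324 CPM at the median and 351 CPM at the highest. The range of the PZH group enclosed that of the water group, with 2 PZH mice above every water mouse and 1 below. The means were 334 ± 24.2 CPM with PZH and 326 ± 16.9 CPM with water (SD, n = 6 each; log2 fold change 0.03, 95% interval -0.13 to 0.20, edgeR adjusted p = 0.863). The highest PZH liver in miR-222-3p was replicate 3, while replicates 1 and 6, the highest in miR-221-3p, held 329 and 323 CPM.

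The passenger arm miR-221-5p also had similar means. Its level in PZH livers was 123 CPM at the lowest, 136 CPM at the median and 197 CPM at the highest. In water livers it was 127 CPM at the lowest, 153 CPM at the median and 182 CPM at the highest. Here 4 of 6 PZH mice lay below the water median, and replicate 1 alone lay above every water mouse. The means were 150 ± 31.8 CPM with PZH and 154 ± 18.0 CPM with water (SD, n = 6 each; log2 fold change -0.04, 95% interval -0.32 to 0.24, edgeR adjusted p = 0.900). The sign of this value turned under several settings, as with total-count scaling, where it was 0.00346.

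The scarcest arm, miR-222-5p, had a lower mean with PZH but was not called. Its level in PZH livers was 5.29 CPM at the lowest, 7.27 CPM at the median and 8.81 CPM at the highest. In water livers it was 7.98 CPM at the lowest, 9.10 CPM at the median and 11.1 CPM at the highest. All 6 PZH mice were below the water median and 4 of them below every water mouse. The means were 7.13 ± 1.26 CPM with PZH and 9.35 ± 1.27 CPM with water (SD, n = 6 each; log2 fold change -0.40, 95% interval -0.74 to -0.05 before adjustment, edgeR adjusted p = 0.0960). Between 47 and 214 reads stood behind each of these values, and the SE of the log2 fold change, 0.16, was the largest of the 4 arms.

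**Figure D1:**
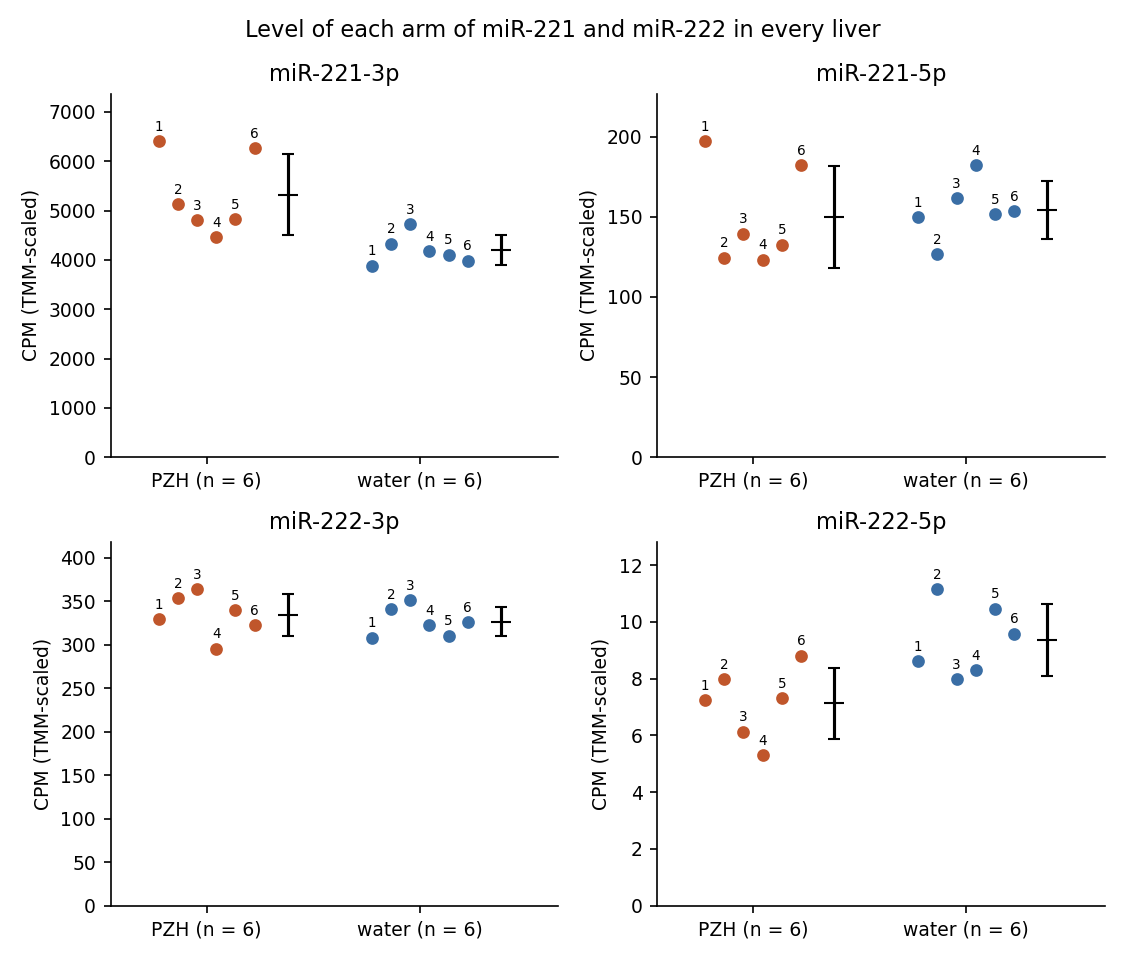
Level of each arm in CPM (vertical axes, each from 0) in every liver, PZH left of water. Each point is a mouse with its replicate number, and the bar beside each group is the mean with SD (n = 6). For miR-221-3p, 5 of 6 PZH mice stand above every water mouse, while the groups overlap widely for miR-222-3p and miR-221-5p.

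The order of the 4 levels was the same in all 12 libraries. The most abundant arm, miR-221-3p, exceeded miR-222-3p by 12.2-fold to 19.5-fold. Next, miR-222-3p exceeded miR-221-5p by 1.67-fold to 2.84-fold, and miR-221-5p exceeded miR-222-5p by 11.4-fold to 27.3-fold. No neighbours in this order overlapped within a library. Summed over the 4 arms the pair stood at 5808 ± 852 CPM with PZH and 4692 ± 315 CPM with water (SD, n = 6 each), of which miR-221-3p made up 91.5% with PZH and 89.5% with water.

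Whether the 2 hairpins changed alike was asked through the ratio of the 3p arms, which does not depend on scaling between libraries. The ratio of miR-221-3p to miR-222-3p was 14.5, 13.2, 15.1 and 14.2 in PZH replicates 2 to 5 and 19.5 and 19.4 in PZH replicates 1 and 6. In the water group all 6 ratios lay between 12.2 and 13.5. The water mice therefore held a narrow range, and 1 PZH mouse, replicate 3, fell within it. The mean ratio was 16.0 ± 2.75 with PZH and 12.9 ± 0.450 with water (SD, n = 6 each; difference of 0.30 on the log2 scale, two-sided exact permutation p = 0.00649 over 924 assignments). Without PZH replicate 1 the difference was 0.24 and without PZH replicate 6 it was also 0.24, with an exact permutation p of 0.00649 in each case. The same ratio of the 5p arms, added after the values were seen, was 21.0 ± 4.01 with PZH and 16.7 ± 3.77 with water (SD, n = 6 each; difference of 0.33 on the log2 scale, exact permutation p = 0.0866). Adjusted over these 2 ratios by Benjamini-Hochberg, the exact permutation p-values were 0.0130 for the 3p arms, with 5 of 6 PZH mice above every water mouse, and 0.0866 for the 5p arms.

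The balance of the arms within each hairpin was compared next, since both arms are cut from the same precursor. In miR-221 the 5p arm took 2.37% to 2.99% of the counts of both arms in PZH livers and 2.84% to 4.18% in water livers. PZH replicate 1 alone was above a water mouse, replicate 2, so the groups overlapped, as for nearly all hairpins (2.19% did not overlap). The mean share was 2.73% ± 0.209 with PZH and 3.55% ± 0.449 with water (SD, n = 6 each). The log2 ratio of 5p to 3p was lower with PZH (difference -0.39, SE 0.11, 95% interval -0.62 to -0.15, limma adjusted p = 0.0456 over 137 hairpins), where 8.03% of the hairpins tested were called. With any 1 of 11 libraries left out the adjusted p rose above the threshold (differences -0.42 to -0.34, limma adjusted p up to 0.103). Water replicate 2 had the lowest 5p share of its group, and with it left out the call held at -0.45 (limma adjusted p = 0.0119). Without adjustment over hairpins, limma gave p = 0.00366 for this ratio and the exact permutation test p = 0.00433.

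In miR-222 the 5p arm took 1.66% to 2.66% of the counts of both arms in PZH livers and 2.22% to 3.26% in water livers. The mean share was 2.09% ± 0.357 with PZH and 2.79% ± 0.394 with water (SD, n = 6 each). PZH replicate 6 was the highest of its group and the only PZH library above the lowest water library. The log2 ratio of 5p to 3p was not called (difference -0.43, SE 0.14, 95% interval -0.72 to -0.13 before adjustment, limma adjusted p = 0.0806), while the exact permutation test of this single ratio gave p = 0.0130. In miR-221 the 3p means differed between the groups and the 5p means were similar, while in miR-222 the 3p means were similar and the 5p mean was 7.13 CPM with PZH and 9.35 CPM with water, a difference that was not called.

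**Figure D2:**
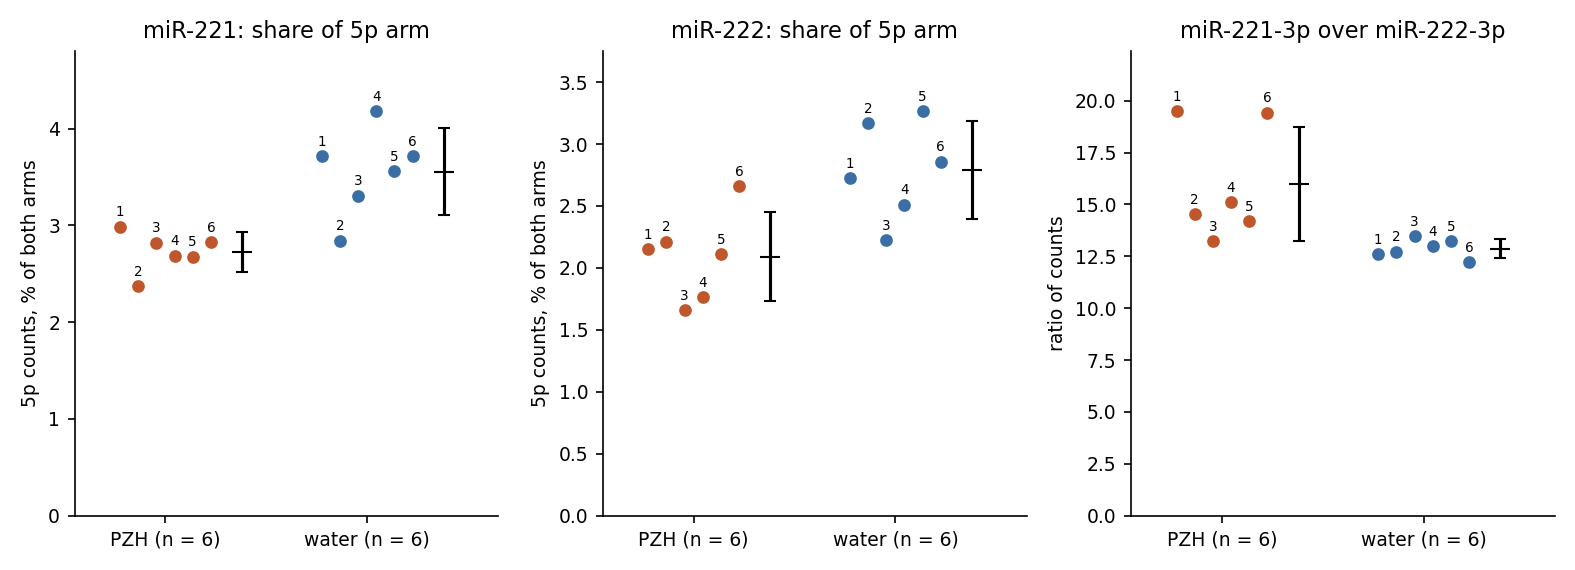
Share of the 5p arm in the counts of both arms of each hairpin (left and middle, percent) and ratio of miR-221-3p to miR-222-3p counts (right), with PZH left of water in each panel. Points are mice with replicate numbers and bars are mean with SD (n = 6). The 5p shares average 2.73% with PZH and 3.55% with water in miR-221, and PZH replicates 1 and 6 hold the 2 highest ratios of the 3p arms, 19.5 and 19.4.

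The 3p arms were next followed across the mice of each group, on log2 CPM. In the PZH group the levels of miR-221-3p and miR-222-3p had a Pearson r of 0.01 and a Spearman rho of -0.03 (n = 6, exact permutation p = 0.983 and 1). Without PZH replicates 1 and 6, the mice farthest from the median of miR-221-3p, r was 0.82. In the water group the same pair had an r of 0.88 (n = 6, exact permutation p = 0.0139) and a rho of 0.83 (exact permutation p = 0.0583), and r was 0.57 without water replicates 1 and 3. Both arms of miR-221 had an r of 0.94 in the PZH group (n = 6, exact permutation p = 0.0278) with a rho of 0.77 (exact permutation p = 0.103), which rested on replicates 1 and 6, since r was 0.12 without them. In the water group both arms of miR-221 had an r of 0.03 (n = 6, exact permutation p = 0.960) and a rho of 0.26 (exact permutation p = 0.658). Over the 12 relations among the 4 arms in the 2 groups, no correlation passed Benjamini-Hochberg adjustment, with a lowest adjusted exact permutation p of 0.167 for r and 0.411 for rho. The difference between the groups in these correlations was not tested.

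**Figure D3:**
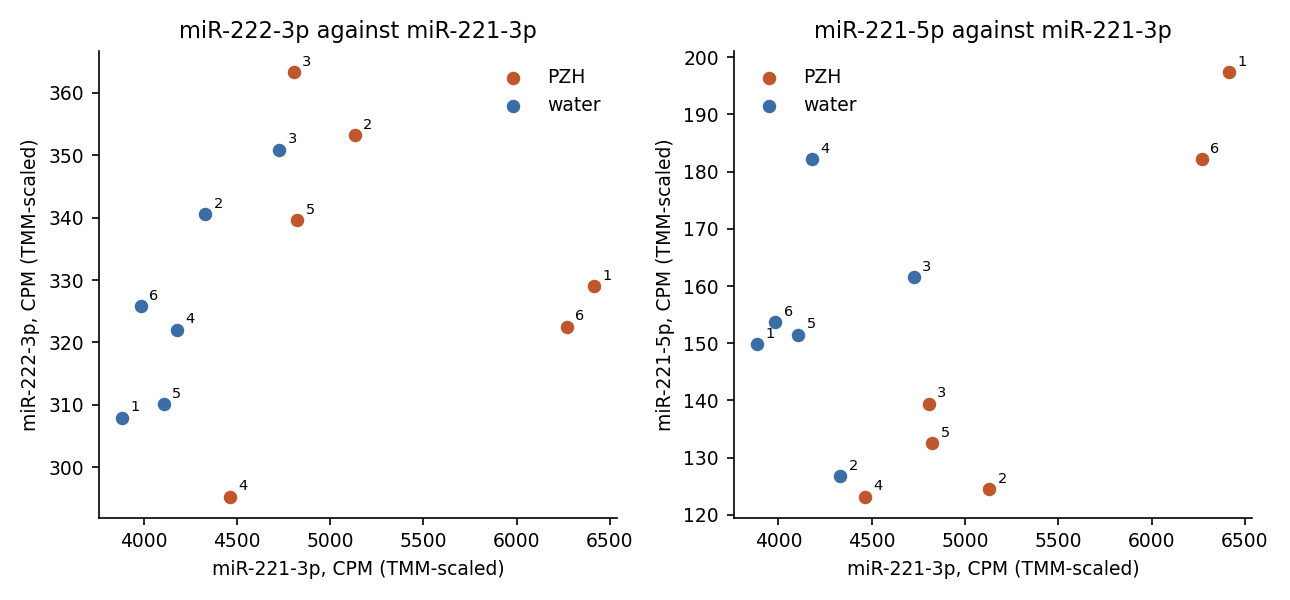
Level of miR-222-3p (left) and of miR-221-5p (right) against that of miR-221-3p, all in CPM, with each mouse as a point labelled by replicate number. PZH replicates 1 and 6 stand to the right of all other mice at 6413 and 6269 CPM of miR-221-3p, with middling miR-222-3p and with miR-221-5p at 197 and 182 CPM.

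The miRNAs whose levels went most alike with each 3p arm were sought among the 171 tested miRNAs that averaged 100 CPM or more, by Pearson r of log2 CPM centred on the group means over the 12 libraries. For miR-221-3p these were miR-362-5p (r = 0.91), miR-1198-5p (0.83), miR-874-3p (0.81), miR-186-5p (0.79) and miR-340-3p (0.77). The closest, miR-362-5p, also comes from the X chromosome, from an arm at 7242019 to 7242042. It averaged 1804 CPM with PZH and 1464 CPM with water (log2 fold change 0.30, edgeR adjusted p = 0.0356). This call was lost once any 1 of 6 libraries was omitted (PZH replicates 3 and 6, water replicates 1, 2, 3 and 6). It was also lost with a replicate block, that is, with same-numbered mice taken as blocks (edgeR adjusted p = 0.102). Of the other 4, miR-874-3p rose (0.62, edgeR adjusted p = 0.00151) and the rest were not called (miR-1198-5p at 0.23, miR-186-5p at 0.12 and miR-340-3p at -0.08). For miR-222-3p the most alike were miR-146b-5p (r = 0.76), miR-125b-5p (0.75), miR-652-3p (0.72), miR-145a-3p (0.71) and miR-100-5p (0.69), none of them called. The lists of the 2 arms had no miRNA in common. The miRNAs compared share the depth and scaling of each library, and these r values describe these 12 libraries only. For miR-221-3p, PZH replicates 1 and 6 stood above all other mice, and r without them was not computed here.

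In mean level, miR-221-3p was number 36 of the tested miRNAs. Just above it stood miR-152-3p (4757 ± 509 CPM with PZH and 5036 ± 264 CPM with water, log2 fold change -0.08), miR-16-5p (-0.13) and miR-378a-3p, which fell (-0.33, edgeR adjusted p = 0.00755) but was not called with all miRNAs tested (adjusted p = 0.0519). Just below it stood let-7a-5p (4980 ± 521 CPM with PZH and 4516 ± 480 CPM with water, log2 fold change 0.14), miR-23a-3p (0.08) and the endothelial miR-126a-5p, taken up with the cell type markers. Over all 12 mice the mean of miR-221-3p was 4760 CPM, and those of its neighbours ran from 4478 CPM for miR-23a-3p to 5145 CPM for miR-378a-3p. Number 115 was miR-222-3p, near miR-28a-5p (0.05), miR-182-5p (-0.02), miR-10b-5p (-0.75, edgeR adjusted p = 0.283), miR-126b-5p, which fell (-0.48, not called without water replicate 4), miR-29c-3p, a repressor of collagen messages, which fell (-0.40), and miR-541-5p, which rose (1.60).

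Like miR-221-3p, several other miRNAs are known to repress inhibitors of cyclin-dependent kinases and so to favour the cell cycle. Of 11 such miRNAs besides the pair, 3 rose, none fell (by edgeR, DESeq2 or limma-voom, with 1 lower by edgeR at an unadjusted p under 0.05) and 8 were not called, with a median log2 fold change of 0.07, against a median of -0.03 and 9.88% called higher over all 607. Those that rose were miR-17-5p (663 ± 53.0 CPM with PZH and 494 ± 43.9 CPM with water, SD, n = 6 each; log2 fold change 0.42, edgeR adjusted p = 0.00231), miR-93-5p (0.35, edgeR adjusted p = 0.00324) and miR-20a-5p (0.28, edgeR adjusted p = 0.0335), all of which are known to repress Cdkn1a. The call of miR-20a-5p ended with any 1 of 6 libraries left out (PZH replicates 3, 5 and 6, water replicates 1, 3 and 4). It also ended without a filter on low counts and with a replicate block. Summed over all 11 miRNAs of the list, the level was 13553 to 14654 CPM in PZH livers and 12316 to 12930 CPM in water livers. Of single tested miRNAs, 5.11% had every PZH mouse above every water mouse. The most abundant in this sum were not called, miR-92a-3p (4022 CPM with PZH, 3456 CPM with water) and miR-24-3p (3404 and 3236 CPM). Whether the 11 miRNAs vary independently of each other was not tested, so the number called only describes the list.

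The opposite role, repression of cyclins and cyclin-dependent kinases, was represented by 14 miRNAs, of which 1 rose, 1 fell and 12 were not called (median log2 fold change 0.05). Over all 607 tested miRNAs, 9.88% were called higher and 11.4% lower, so these counts were near the background. The one that fell was miR-503-5p, at 66.8 ± 5.33 CPM with PZH and 121 ± 10.3 CPM with water (SD, n = 6 each; log2 fold change -0.85, edgeR adjusted p = 1.42e-05). The one that rose was let-7b-5p (0.28, edgeR adjusted p = 0.0495), which was lost in 13 of 22 alternatives, with any 1 of 9 libraries left out among them (all but PZH replicates 1 and 3 and water replicate 5).

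Of 17 other miRNAs known to promote fibrosis, none rose by edgeR, 1 fell and 16 were not called (median log2 fold change -0.01), while DESeq2 called 1 higher and 1 lower and limma-voom 0 higher and 1 lower. Over all tested miRNAs edgeR called 9.88% higher and 11.4% lower. At an unadjusted p under 0.05 by edgeR there were 1 higher (miR-181b-5p) and 2 lower (miR-21a-3p and miR-155-5p). The one that fell was miR-21a-3p, the passenger arm of miR-21a, at 116 ± 23.0 CPM with PZH and 201 ± 42.2 CPM with water (SD, n = 6 each; log2 fold change -0.80, edgeR adjusted p = 0.00281). The guide arm miR-21a-5p was not called (log2 fold change -0.01, edgeR adjusted p = 0.923). It averaged 188810 ± 18743 CPM with PZH and 190761 ± 14082 CPM with water (SD, n = 6 each), the highest mean of all tested miRNAs. The inflammation-induced miR-155-5p stood at -0.34 (edgeR adjusted p = 0.0951) and miR-181b-5p at 0.26 (edgeR adjusted p = 0.0771).

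**Figure D4:**
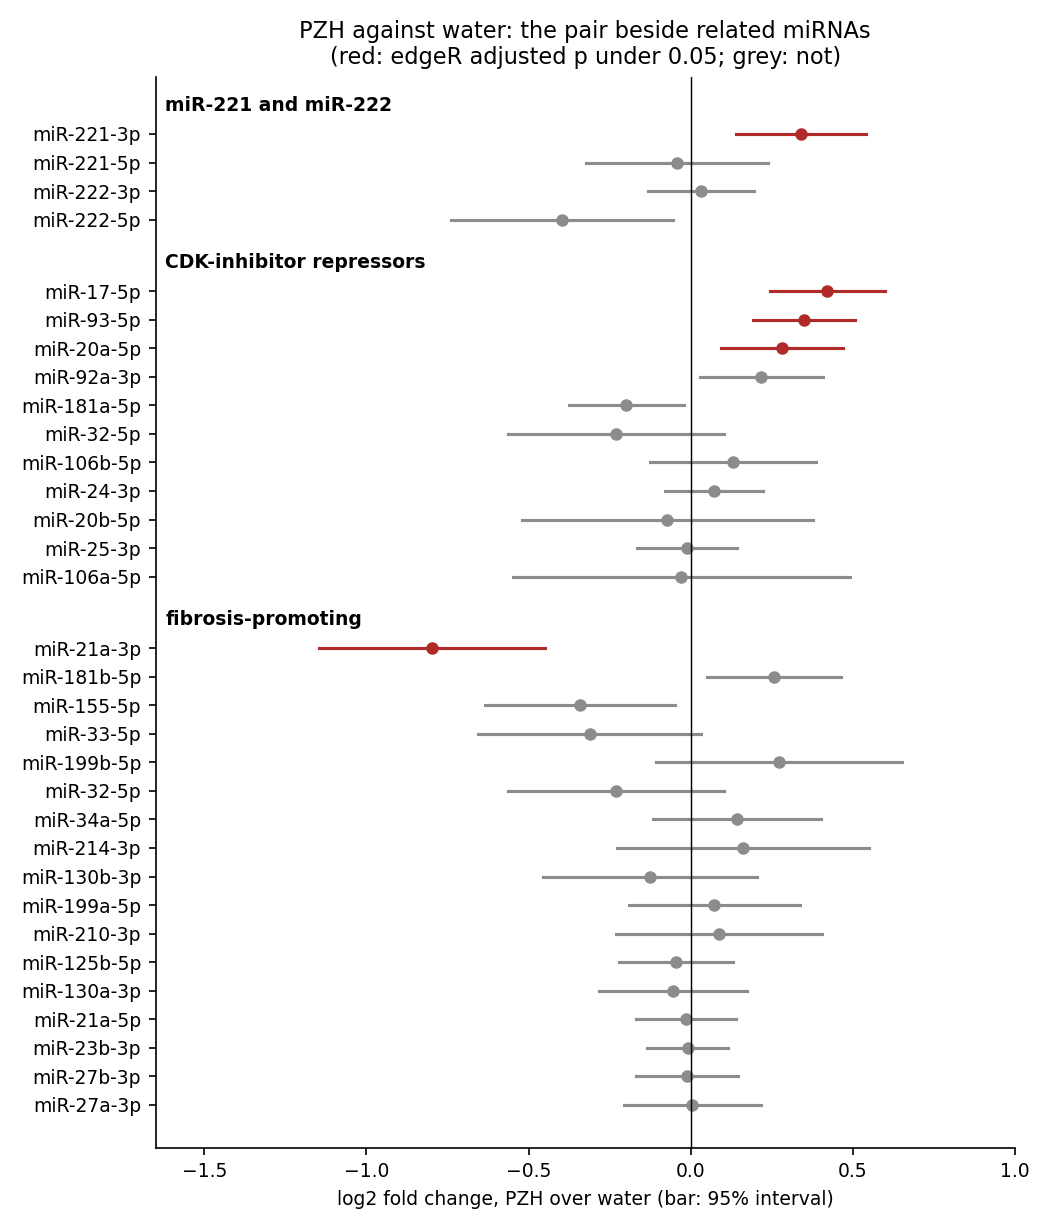
Log2 fold change of PZH over water (horizontal axis) with its 95% interval before adjustment, for the 4 arms of the pair and for 2 lists of miRNAs with related roles, red where the edgeR adjusted p is under 0.05. In the pair miR-221-3p alone is red, at 0.34, beside 3 of 11 repressors of CDK inhibitors, all higher, and 1 of 17 fibrosis-promoting miRNAs, which is lower.

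Other miRNAs that mark cell types differed between the groups as well, and in whole liver a change in the number of cells of a type and a change in the RNA of each cell cannot be told apart. Of 8 mesenchymal and smooth muscle markers, the class that includes stellate cells, none was called by edgeR at a median log2 fold change of 0.13, with 1 at an unadjusted p under 0.05 (miR-145a-5p, 0.19), and DESeq2 and limma-voom called 0 as well. Their summed level ranged from 51665 to 89850 CPM with PZH and from 61899 to 89882 CPM with water. The endothelial miR-126a-3p was 7971 ± 759 CPM with PZH and 10218 ± 665 CPM with water (SD, n = 6 each) and fell (-0.36, edgeR adjusted p = 0.00281). Its partner miR-126a-5p was called lower too (-0.33, edgeR adjusted p = 0.0445), which was lost in 16 of 22 alternatives, with any 1 of 9 libraries left out among them (all but PZH replicates 4 and 6 and water replicate 2). The sum of these 2 was 10268 to 13894 CPM with PZH and 12857 to 17089 CPM with water.

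Over all tested miRNAs edgeR called 9.88% higher and 11.4% lower, against which the counts of the marker lists stand. Of 11 hepatocyte markers 6 fell by edgeR, 6 by limma-voom and 4 by DESeq2, and none rose by any of them, also at an unadjusted p under 0.05 (median log2 fold change -0.26, sums of 215463 to 279926 CPM with PZH and 236786 to 273180 CPM with water). The most abundant of these markers, miR-122-5p, was not called (log2 fold change 0.05, edgeR adjusted p = 0.786). It averaged 107862 ± 13906 CPM with PZH and 104095 ± 7997 CPM with water (SD, n = 6 each). Nor were miR-194-5p (-0.14), miR-192-5p (-0.20), miR-148a-3p (0.004) and miR-122-3p (-0.07) called. The lowest p-values of this list belonged to miR-455-3p (-0.53), miR-455-5p (-0.48), miR-802-5p (-0.65) and miR-101b-3p (-0.26). Also called lower by edgeR were miR-193a-3p (-0.48) and miR-101a-3p (-0.30). Both arms of miR-455 come from the same hairpin, within the collagen gene Col27a1. Whether hepatocytes are the source of any of the 6 miRNAs that fell was not tested. The call of miR-101b-3p was lost by DESeq2, with all miRNAs tested, and without PZH replicate 2, PZH replicate 5 or water replicate 4. With all miRNAs tested, miR-455-5p was not called (edgeR adjusted p = 0.0527). Of 8 leukocyte markers 1 rose (miR-342-3p, 0.42) and 2 fell (miR-223-3p, -0.58, and miR-146a-5p, -0.47), with sums of 11130 to 16888 CPM with PZH and 14088 to 17822 CPM with water. At an unadjusted p under 0.05 by edgeR, 1 leukocyte marker was higher and 4 were lower. Without water replicate 4, miR-146a-5p was no longer called (edgeR adjusted p = 0.0504). Of 5 epithelial and biliary markers 2 fell by edgeR and by DESeq2 (miR-200c-3p and miR-141-3p) and 0 by limma-voom, with sums of 863 to 1246 CPM with PZH and 930 to 2191 CPM with water. The first was lost without PZH replicate 1, 2, 3 or 5, and the second without any 1 library except PZH replicate 4 and water replicates 1 and 3. Both were also lost with a replicate block, and the second with a filter of 10 CPM in 6 libraries. Of 4 erythroid markers none was called by edgeR (median -0.28, 1 at an unadjusted p under 0.05, miR-451a, and 0 called by DESeq2 or limma-voom), with sums of 3236 to 5500 CPM with PZH and 3660 to 5756 CPM with water. No marker of these lists was at 0 in any library. The part of these cell types in the rise of miR-221-3p was not tested.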

How the data were processed

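The authors deposited 1 table of raw counts for mature miRNAs, not normalized, with a column per liver. The submitters' processing notes name cutadapt, FastQC, BWA, DESeq2 and GRCm38. Counting tool, strand and the treatment of multiply matching reads: not given in the sources used here. No cell of the deposited counts holds 1. Of 15 replicate pairs in each group none held identical counts. Labels do not say that same-numbered mice are paired. The p-values set a group difference against the spread between mice, which edgeR and limma estimate in part from other miRNAs or hairpins. Reads carry no molecular identifiers.

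Counts were tested with edgeR 4.0.16 (TMM, filterByExpr, quasi-likelihood) in R 4.3.3. SEs and intervals came from its test statistic. Arm ratios were log2 ratios of counts plus 1, tested with limma 3.58.1 for the 137 hairpins with a mean of at least 20 counts in each arm. Log2 CPM used a prior count of 2. Alternatives were other scalings and filters, DESeq2 1.42.0, limma-voom, a robust fit, a replicate block, other pseudocounts and each library left out. Methods were tested on simulated data.

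The members, lists and tests were chosen with earlier results of these data known. The rule for naming took the 4 arms, miRNAs sharing a seed, the 5 most alike and the 6 nearest in level to each 3p arm, and the 4 lowest p-values of each list. Other names were chosen after their values were seen. RefSeq sequences matched 3 of the 4 arms, all but miR-222-5p.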

Additional observations from a re-analysis of the deposited data

How the results depend on the processing

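The rise of miR-221-3p kept its direction and its call in 21 of 22 alternatives, with log2 fold changes of 0.28 to 0.43. With a replicate block it was 0.33 (edgeR adjusted p = 0.050003, just above the threshold), and the ratio of the 3p arms kept its difference of 0.30 with an exact sign-flip p of 0.0625. No label pairs same-numbered mice, so the numbers were not taken as pairs. Same-numbered mice correlated at -0.15 to 0.08 after centring on group means, which cannot show whether they shared a cage, litter or batch. Of the water mice, only replicate 1 correlated best with the PZH mouse of its own number. The block changed the call of the miR-221 arm ratio too (-0.39, limma adjusted p = 0.0729), as did a minimum of 5 counts per arm (-0.39, adjusted p = 0.0774). Leaving out 1 library gave -0.45 to -0.34. Among the alternatives, the miR-222 arm ratio was past the threshold only with the exact permutation test (-0.43), whose p was not adjusted over hairpins. This ratio could not be compared at a minimum of 100 counts. The value of miR-221-5p, never called, turned to 0.00346 with total-count scaling, 0.00478 with DESeq2, 0.0457 with a filter of 10 CPM in 6 libraries, and ranged from -0.14 to 0.0346 with 1 library left out. That filter removed miR-222-5p. In the other 21 alternatives it stayed negative and uncalled, as miR-222-3p stayed positive and uncalled in 22. In the water group the correlation of the 3p arms was 0.76 with total-count scaling (exact permutation p = 0.0653) and 0.74 to 0.94 with 1 mouse left out. In the PZH group it was -0.83 to 0.24 with 1 mouse left out, the lowest without replicate 4. The count of called miRNAs ranged from 94 to 144, against 129. The cause of these shifts was not tested. The arm with the fewest reads, miR-222-5p, had the largest SE of the 4.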

Other observations

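The position of the pair on the X chromosome was looked at after the values were seen. Of 59 tested miRNAs placed on the X chromosome alone, 3 rose and 5 fell with PZH, with a median log2 fold change of -0.09, against -0.03 over all 607 tested miRNAs, of which 9.88% rose and 11.4% fell. Placement was by RefSeq position of the mature arm, with miR-222-5p added because its hairpin lies there. Other miRNAs without a RefSeq position were not counted among the 59. The 3 that rose were miR-221-3p, miR-362-5p (0.30) and miR-501-3p (0.33, edgeR adjusted p = 0.00959). The last of these lies close to miR-362. Their partner arms were not called, with miR-362-3p at -0.13, miR-501-5p at -0.03 and miR-221-5p at -0.04.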
